A study of Mus musculus with 28 samples.

Results

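The 10 genes described here belong to the TGF-beta and BMP signalling pathways of the mouse. Tgfb1, Tgfb2, Tgfb3 and Bmp4 encode secreted ligands, Tgfbr2 encodes a receptor, and Tgfbi, Id1, Id2, Id3 and Smad7 are genes known to respond to these ligands. They were taken by symbol, and all 10 were found among 47643 gene rows, of which 17068 had at least 1 read in the series. Cells were sorted directly from H2B-GFP mice, which carry green fluorescent protein fused to histone H2B, into a fluorescent (GFP+) and a non-fluorescent (GFP-) fraction. For each fraction there were 4 thyroid libraries from mice aged 3 months, 4 from mice aged 6 months, 3 from mice aged 9 months and 3 salivary gland libraries from mice aged 9 months. RNA was counted from its 3′ ends in all 28 libraries. All groups share the H2B-GFP background, no treatment is given in the labels, and the promoter that drives the reporter is not given in the sources used here.

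TGF-beta ligands are secreted in a latent form bound to matrix proteins, are released from it, and then join type II and type I receptors that phosphorylate Smad2 and Smad3. BMP ligands act through related receptors that phosphorylate Smad1, Smad5 and Smad9, and the Id genes are among their best known targets. In connective tissue, TGF-beta signalling is known for the induction of collagens and other matrix genes, and in the thyroid TGF-beta is known as an inhibitor of follicular cell growth.

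The promoter windows of the tested ligand Tgfb2, of Tgfbi and of the BMP-responsive genes Id2 and Id3 are shown because the results below turn on these 4 genes. Each window covers the 250 bases before the annotated start, taken from RefSeq (GRCm38.p6) and written 5′ to 3′ on the strand of the gene. Capitals mark Smad-associated motifs found on either strand. Tgfbi lies at chr13:56609336-56609585 on the plus strand, Tgfb2 at chr1:186705990-186706239 on the minus strand, Id2 at chr12:25096093-25096342 on the minus strand, and Id3 at chr4:136143572-136143821 on the plus strand.
Tgfbi: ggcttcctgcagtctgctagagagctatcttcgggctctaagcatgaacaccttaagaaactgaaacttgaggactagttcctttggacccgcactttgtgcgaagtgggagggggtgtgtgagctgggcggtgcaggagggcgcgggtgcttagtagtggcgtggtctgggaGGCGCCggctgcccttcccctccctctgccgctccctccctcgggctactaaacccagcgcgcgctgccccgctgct
Tgfb2: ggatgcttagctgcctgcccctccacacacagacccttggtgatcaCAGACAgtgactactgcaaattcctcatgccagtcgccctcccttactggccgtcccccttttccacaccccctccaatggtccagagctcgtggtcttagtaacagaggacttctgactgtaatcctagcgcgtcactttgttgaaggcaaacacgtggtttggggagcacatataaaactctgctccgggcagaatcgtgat
Id2: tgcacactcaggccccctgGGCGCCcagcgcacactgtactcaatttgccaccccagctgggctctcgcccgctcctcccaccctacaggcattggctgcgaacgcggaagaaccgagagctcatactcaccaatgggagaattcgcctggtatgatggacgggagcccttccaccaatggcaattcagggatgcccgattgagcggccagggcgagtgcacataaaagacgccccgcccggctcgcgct
Id3: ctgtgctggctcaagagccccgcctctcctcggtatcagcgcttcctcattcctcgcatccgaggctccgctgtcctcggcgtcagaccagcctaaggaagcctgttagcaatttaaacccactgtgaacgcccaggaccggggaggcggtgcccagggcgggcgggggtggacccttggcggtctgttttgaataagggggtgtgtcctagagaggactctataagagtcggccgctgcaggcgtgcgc
The search used the GC-rich Smad element GGCGCC, the Smad box CAGACA and the palindrome GTCTAGAC, none of which overlaps another in these windows. GGCGCC begins 77 bases before the start of Tgfbi and 231 bases before that of Id2, and CAGACA begins 204 bases before that of Tgfb2. The Id3 window holds none of these letters. Of 32851 promoter windows of the same length, 9.59% hold GGCGCC, 17.1% hold CAGACA and 0.167% hold GTCTAGAC. A match describes letters only, not a bound site.

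The libraries held between 507 and 209091 reads in genes, and 6 of them (4 GFP+ and 2 GFP-) held under 10000. A single read was therefore worth 4.78 to 1972 CPM (counts of a gene scaled to a library total of 1000000 reads in genes). Ribosomal RNA rows took 25.1 to 63.8% of the reads in genes. No label says whether replicates came from different mice, and the p-values below therefore refer to the variation among these libraries, which may be technical. The thyroid libraries carried the thyroid follicular marker Tg and its companions (9 of 10 listed markers detected in each GFP- group and 7 to 9 in the GFP+ groups) and, as summed levels, strong parathyroid and C cell markers. The salivary libraries carried the acinar markers (8 of 8 in GFP- and 5 of 8 in GFP+).

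In the thyroid, the GFP+ fraction had more Tgfbi and Tgfb2 RNA than the GFP- fraction, whereas Id2, Id3 and Tgfbr2 did not pass the test. Over the mean of the 3 ages, Tgfbi was 8.18-fold higher and Tgfb2 2.91-fold higher. Of the 10 members, 5 passed the filter on low counts and were tested (Tgfbi, Tgfb2, Tgfbr2, Id2 and Id3). The filter asks for a CPM worth about 10 reads at the median library size, in about as many libraries as the smallest group holds. Of those 5, 2 were called, both higher, at an adjusted p under 0.05 in the quasi-likelihood test of edgeR (p adjusted over 1900 genes by the Benjamini-Hochberg method). The same rule called 20.2% of all genes tested (383 of 1900), 11.4% as higher (216) and 8.79% as lower (167). With the size factors of DESeq2 in place of TMM 70.7% of the calls were higher, against 56.4% here, and the median of all genes moved from -0.08 to 0.22. The median log2 fold change was 0.95 over the 5 members tested and -0.08 over all genes tested. Tgfbi reached the level of the filter only in GFP+ libraries (177, 419, 154 and 153 CPM, against at most 52.8 CPM in GFP-), and Id2 only in GFP- libraries. The count of calls and this median therefore rest on genes that the filter let in partly through a single fraction. With no filter, Tgfbi was still called (3.03, adjusted p = 0.000165, edgeR) and Tgfb2 was not. In sorted bulk cells, more RNA per cell and more cells of an expressing type cannot be told apart.

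**Figure D1:**
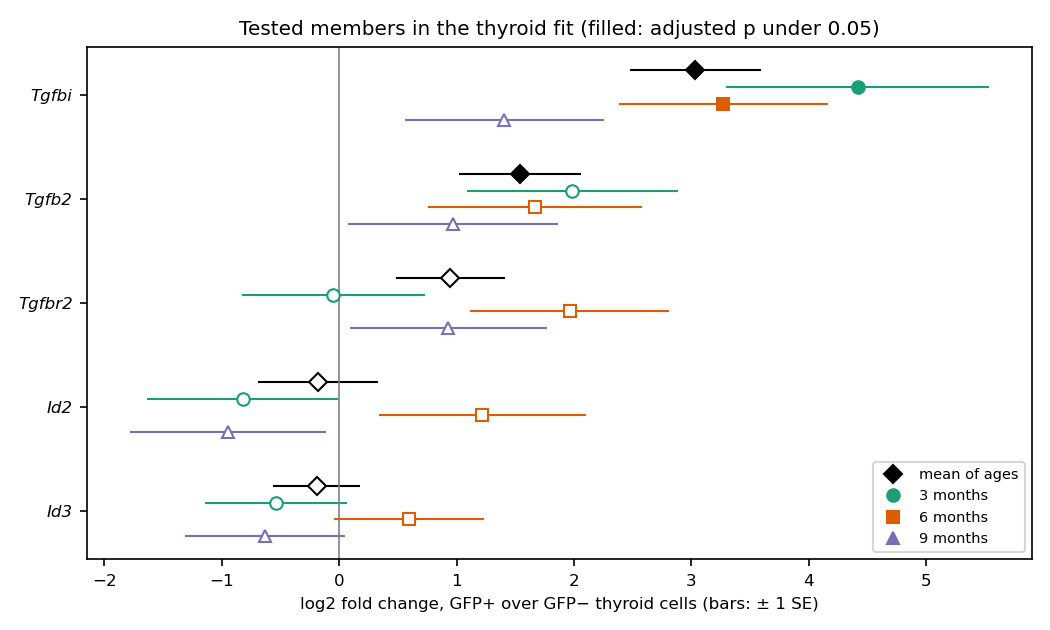
Log2 fold change of GFP+ over GFP- thyroid cells for the 5 members tested, as the mean of the ages and at each age (x axis, bars ± 1 standard error, filled symbols for an adjusted p under 0.05). Tgfbi is filled for the mean (3.03), 3 months (4.42) and 6 months (3.27), Tgfb2 for the mean (1.54), and no symbol of Tgfbr2, Id2 or Id3 is filled.

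Tgfbi (ENSMUSG00000035493) encodes a secreted matrix protein that TGF-beta was found to induce and that links collagens to cell surface integrins. At 3 months the GFP- libraries held 10.7, 0, 0 and 0 CPM and the GFP+ libraries 0, 0, 53.7 and 177 CPM. At 6 months GFP- held 0, 0, 23.9 and 0 CPM while GFP+ held 82.3, 419, 61.4 and 0, and at 9 months 0, 52.8 and 38.4 against 154, 153 and 69.8 CPM. The 3 GFP+ libraries without a Tgfbi read are the 3 shallow ones, where a count of 0 allows up to 509 to 5917 CPM. Among the libraries of at least 10000 reads, the fractions did not overlap: 8 GFP+ libraries lay between 53.7 and 419 CPM and 9 GFP- libraries between 0 and 52.8 CPM. The 53.7 CPM is 1 read in a library of 18639 reads, and the 52.8 CPM is 7 reads in 132610. The separation therefore rests on 1 read.

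The fitted difference for Tgfbi was 3.03 on the log2 scale (SE 0.558, adjusted p = 1.95e-06, edgeR). Summed over libraries, 125 reads in GFP+ stood against 18 in GFP-, a ratio of 7.82 per read in genes (95% interval 4.75 to 13.6, counting error only). By age, the log2 difference was 4.42 at 3 months (SE 1.12, adjusted p = 0.00273), 3.27 at 6 months (SE 0.89, adjusted p = 0.00686) and 1.41 at 9 months (adjusted p = 0.722). The test called 1 of the 5 members at 3 months, where it called 9.68% of all genes (4.95% higher and 4.74% lower). It called 1 of the 5 at 6 months, against 7.11% of all genes (5.26% higher, 1.84% lower), and 0 of the 5 at 9 months, against 1.89% (0.263% higher, 1.63% lower). Single libraries carry much of this: 31 of the 32 GFP+ reads at 3 months lie in replicate 4, and 32 of the 51 at 6 months in replicate 2. Without replicate 4 of the GFP+ cells at 3 months, the mean difference was 2.31 and no longer called (adjusted p = 0.0741), and that at 3 months was 2.24 (adjusted p = 0.48). Without replicate 3 of the GFP- cells at 6 months, which holds all 5 GFP- reads of that age, the mean difference was 4.16 and that at 6 months 6.68. At 3 months it was 5.96 without GFP- replicate 1 and 3.62 without GFP- replicate 2, both still called. The call at 6 months was lost without GFP+ replicate 2 (2.08, adjusted p = 0.352) and without GFP- replicate 4 (2.78, adjusted p = 0.0799). With replicate number as a block in the fit it was lost too (2.88, adjusted p = 0.0543, edgeR). With no filter on low counts the differences at 3 months (4.27, adjusted p = 0.0873) and 6 months (3.32, adjusted p = 0.137) were not called.

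Tgfb2 (ENSMUSG00000039239) had more reads in thyroid GFP+ cells than the other TGF-beta ligand genes, Tgfb1 and Tgfb3. At 3 months the GFP- libraries held 21.4, 30.6, 0 and 12.8 CPM and the GFP+ libraries 0, 0, 161 and 131 CPM. At 6 months they held 33.5, 206, 23.9 and 0 against 141, 91.7, 51.1 and 0 CPM, and at 9 months 170, 37.7 and 46.1 against 92.1, 99.9 and 116 CPM. The high GFP- values of 206 and 170 CPM are 1 read each in libraries of 4845 and 5884 reads. Among libraries of at least 10000 reads the fractions again did not overlap, with 51.1 to 161 CPM in GFP+ and 0 to 46.1 CPM in GFP-. Both members that separated in this way were higher in GFP+, which 2.42% of all genes tested did (46 of 1900), and no member tested separated in the other direction, as 1.05% of genes did. For Tgfbi the separation rests on 1 read.

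The fitted difference for Tgfb2 was 1.54 (SE 0.521, adjusted p = 0.0186, edgeR), and the ratio of summed reads was 3.67 (88 against 27 reads, 95% interval 2.36 to 5.88). At no single age did Tgfb2 pass: the log2 differences were 1.98 at 3 months (adjusted p = 0.156), 1.67 at 6 months (adjusted p = 0.352) and 0.97 at 9 months (adjusted p = 0.904). The call over ages was lost with DESeq2 (1.77, adjusted p = 0.0797) and with no filter on low counts (1.56, adjusted p = 0.104). It was also lost without 1 of 3 libraries: GFP+ at 3 months replicate 4 (1.32, adjusted p = 0.122), GFP- at 6 months replicate 4 (1.34, adjusted p = 0.0685) and GFP- at 9 months replicate 2 (1.47, adjusted p = 0.0623).

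**Figure D2:**
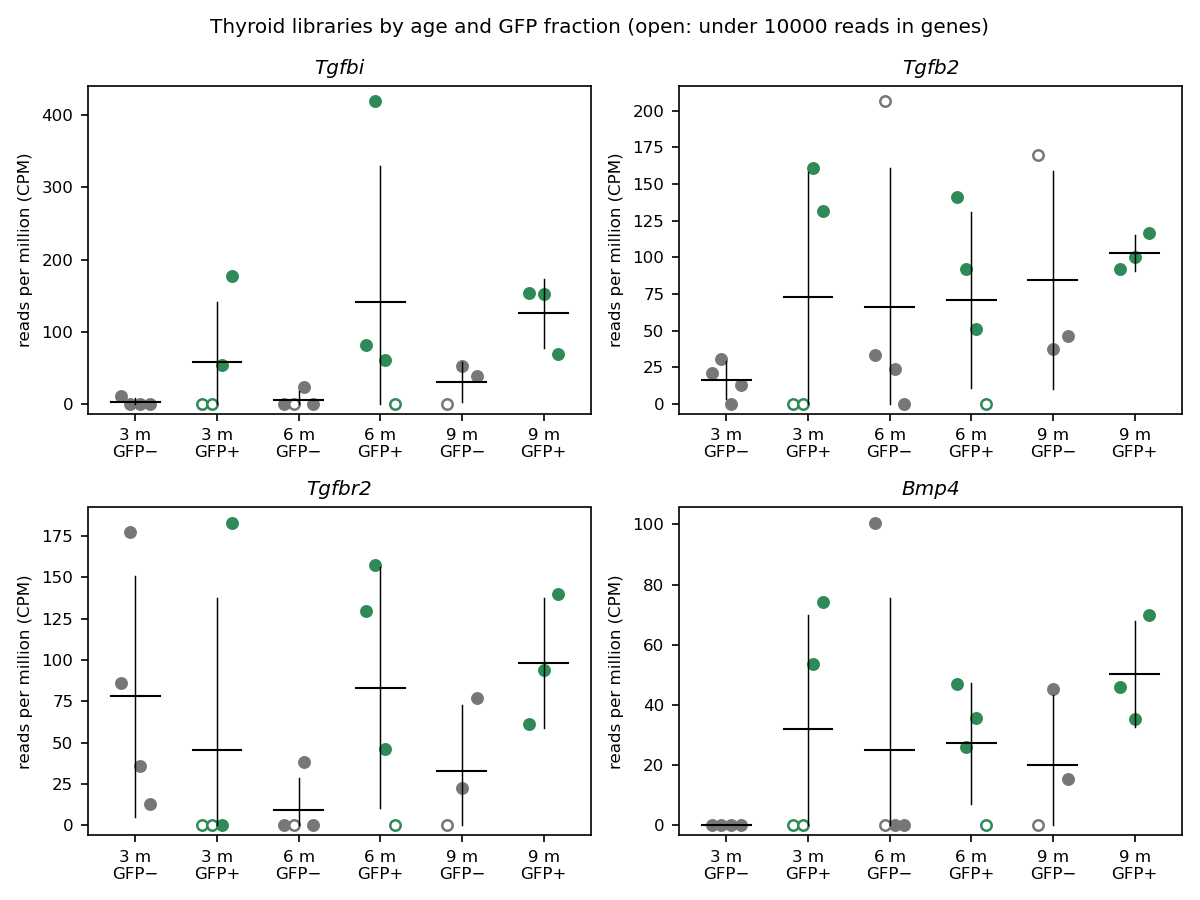
CPM (y axis) of Tgfbi, Tgfb2, Tgfbr2 and Bmp4 in each thyroid library by age in months and fraction, with the mean (horizontal line) and ± 1 SD (vertical line, drawn down to 0 at most); open circles are libraries under 10000 reads. For Tgfbi and Tgfb2, every filled GFP+ circle lies above every filled GFP- circle, at 53.7 (1 read) against 52.8 CPM (7 reads) for the closest Tgfbi values.

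Bmp4 (ENSMUSG00000021835), the BMP ligand of the list, did not pass the filter for the test. The 4 GFP- libraries at 3 months held 0 reads, and the GFP+ libraries held 0, 0, 53.7 and 74.3 CPM (14 reads), which is at least 8.42-fold higher with 3 reads taken as the limit over the GFP- group. Of the 14 reads, 13 lie in replicate 4, without which no limit remains, and without GFP- replicate 2 it is 4.62-fold. At 6 months GFP- held 101, 0, 0 and 0 CPM against 47.0, 26.2, 35.8 and 0 CPM in GFP+, and at 9 months 0, 45.2 and 15.4 against 46.1, 35.2 and 69.8 CPM. The fractions overlapped at 6 and 9 months. Every GFP+ library of at least 10000 reads held Bmp4 (26.2 to 74.3 CPM), but 6 of the 9 GFP- libraries of that depth held none. Over all ages the ratio of summed reads was 4.30 (42 against 11 reads, 95% interval 2.18 to 9.26), and 8.19 without GFP- replicate 2 at 9 months. When no filter was applied, Bmp4 entered the fit with a log2 difference of 2.32 (adjusted p = 0.0379 over 16525 genes).

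The other ligand genes were close to the detection limit. Tgfb1 (ENSMUSG00000002603), the best known immunoregulatory ligand, had 10 reads in GFP- and 2 in GFP+ thyroid cells, a ratio of 0.225 (95% interval 0.024 to 1.06) that was 0.340 without GFP- replicate 1 at 3 months. Its reads lay in 5 of 11 GFP- libraries (up to 42.9 CPM) and in 1 of 11 GFP+ libraries (26.2 CPM). Tgfb3 (ENSMUSG00000021253) had 9 reads in GFP+ and 2 in GFP-, a ratio of 5.07 (1.05 to 48.2), and 7 of the 9 came from GFP+ cells at 6 months, where GFP- had 0 reads. The limit there was at least 2.35-fold, but none remained without GFP- replicate 3 or GFP+ replicate 3 of that age, and the ratio over ages was 8.78 and 8.80 without GFP- replicates 2 and 3 at 9 months. Neither gene passed the filter for a test.

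Tgfbr2 (ENSMUSG00000032440) encodes the type II receptor that binds TGF-beta and activates the type I receptor. Its GFP- values were 85.8, 177, 35.8 and 12.8 CPM at 3 months, 0, 0, 38.3 and 0 at 6 months, and 0, 22.6 and 76.8 at 9 months. Its GFP+ values were 0, 0, 0 and 183 CPM, then 129, 157, 46.0 and 0, then 61.4, 94.0 and 140. The groups overlapped at 3 and 9 months, and at 6 months they separated among the deeper libraries only. The log2 difference over ages was 0.95 (SE 0.466, adjusted p = 0.153, edgeR), made of -0.05 at 3 months, 1.96 at 6 months (adjusted p = 0.166) and 0.93 at 9 months. All 32 GFP+ reads at 3 months came from replicate 4: without it the difference over ages was -1.01. Without replicate 3 of the GFP- cells at 6 months, which holds all 8 reads of its group, the difference over ages was 2.28 and called (adjusted p = 0.0133). It was also called with the size factors of DESeq2 (1.24, adjusted p = 0.0439).

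The Id genes encode helix-loop-helix proteins without a DNA-binding region that block other transcription factors of that class, and Id3 (ENSMUSG00000007872) was the most abundant member in the thyroid. At 3 months Id3 stood at 375, 367, 465 and 602 CPM in GFP- and at 0, 339, 268 and 674 CPM in GFP+. At 6 months it stood at 369, 619, 76.5 and 165 against 482, 485, 179 and 0 CPM, and at 9 months at 850, 339 and 307.2 against 261, 282 and 198 CPM. The fractions overlapped at 3 and 6 months, while at 9 months each GFP+ value was below each GFP- value. The 850 CPM is 5 reads in a library of 5884 reads. The share of all genes that separated at a single age, here, for Id2 or for Tgfbr2, was not counted. The log2 difference over ages was -0.19 (SE 0.373, adjusted p = 0.83, edgeR), with -0.54, 0.59 and -0.63 at 3, 6 and 9 months. Its sign depended on the processing: it was 0.13 with the size factors of DESeq2 and 0.17 without libraries under 10000 reads. The ratio of summed reads, which weights libraries by depth, was 1.23 (95% interval 1.04 to 1.44). Of the 125 GFP+ reads of Id3 at 3 months, 118 lie in replicate 4.

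Id2 (ENSMUSG00000020644) had fewer reads than Id3 in each thyroid library that held reads of either. GFP- cells held 85.8, 128, 0 and 128 CPM at 3 months, 0, 0, 19.1 and 34.7 at 6 months, and 170, 83.0 and 115 at 9 months. GFP+ cells held 0, 0, 53.7 and 91.5 CPM, then 94.0, 78.6, 40.9 and 0, then 76.8, 58.7 and 34.9. At 9 months all GFP- values were above all GFP+ values, and at 6 months the deeper libraries stood in the opposite order. The 170 CPM is 1 read in a library of 5884 reads. The log2 difference was -0.18 over ages (SE 0.512, adjusted p = 0.897, edgeR), with -0.82, 1.22 and -0.95 at the 3 ages, and it was 0.15 with DESeq2 and 0.09 with its size factors.

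Id1 and Smad7 did not pass the filter for the test, and the intervals of both ratios between the fractions include 1. For Id1 too few libraries reached the level of the filter, although it had more thyroid reads in all than Tgfb2 (88 and 27), which passed. Id1 (ENSMUSG00000042745) had 52 reads in GFP+ and 73 in GFP- thyroid cells, a ratio of 0.802 (95% interval 0.551 to 1.16), and ranged from 0 to 123 and from 0 to 136 CPM. In both fractions its summed level was lowest at 6 months: 25.2 CPM in GFP+ (99.5 at 3 and 71.6 at 9 months) and 27.8 CPM in GFP- (91.0 and 112). Smad7 (ENSMUSG00000025880), which encodes an inhibitory Smad that is induced by the pathway and shuts off its receptors, had 42 and 37 reads, a ratio of 1.28 (0.802 to 2.04), and ranged from 0 to 85.7 CPM in GFP+ and from 0 to 89.7 CPM in GFP-. For both genes the fractions overlapped at every age.

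**Figure D3:**
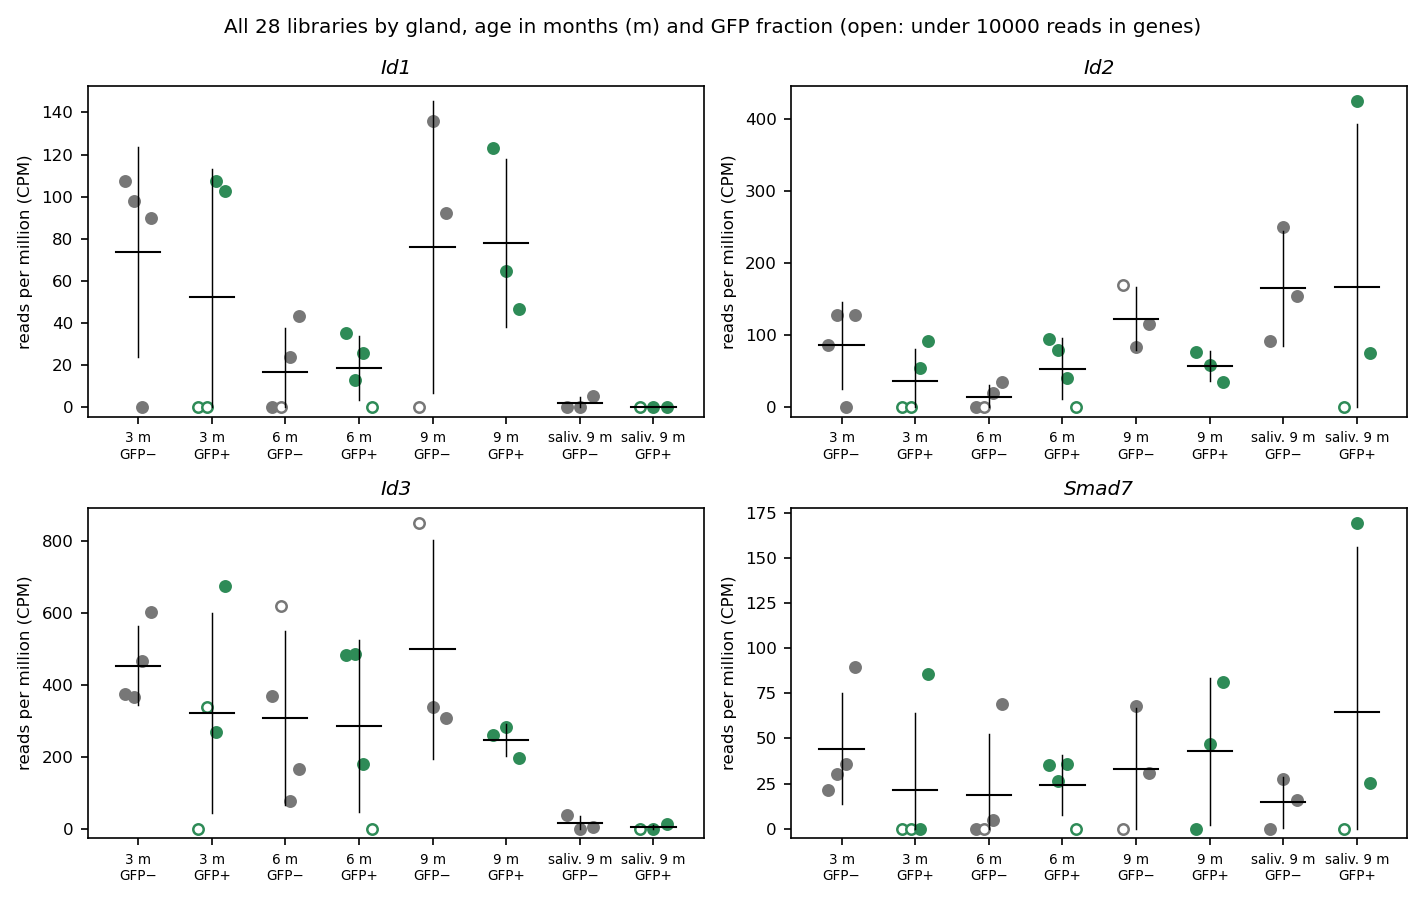
CPM (y axis) of Id1, Id2, Id3 and Smad7 in all 28 libraries by gland, age in months and fraction, with the mean (horizontal line) and ± 1 SD (vertical line, drawn down to 0 at most); open circles are libraries under 10000 reads. Id3 lies between 198 and 850 CPM in the thyroid at 9 months and between 0 and 39.2 CPM in the salivary gland.

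Reads of a 3′ library come from transcript ends whatever the length of the transcript, so the members can be ranked by CPM of summed reads. In thyroid GFP+ cells the order was Id3 (364 CPM), Tgfbi (142), Tgfbr2 (109), Tgfb2 (100.02), Id2 (64.8), Id1 (59.1), Bmp4 and Smad7 (47.7 each), Tgfb3 (10.2) and Tgfb1 (2.27). The 95% counting intervals of Tgfbi (118 to 169 CPM), Tgfbr2 (88.4 to 133) and Tgfb2 (80.2 to 123) each overlap that of the next gene, which for Tgfb2 is Id2 (49.1 to 83.9). The same holds from Id2 down to Smad7 and for Tgfb3 and Tgfb1, so the order of neighbours is not resolved. The intervals leave out the spread among libraries, so a gap between them would not settle an order either. In GFP- cells Id3 (296.8 CPM) again led, followed by Id2 (74.7), Id1 (73.7), Tgfbr2 (60.6), Smad7 (37.3), Tgfb2 (27.3), Tgfbi (18.2), Bmp4 (11.1), Tgfb1 (10.1) and Tgfb3 (2.02). The intervals of Id2 (58.7 to 93.8 CPM), Id1 (57.8 to 92.6), Tgfbr2 (46.2 to 78.0) and Smad7 (26.3 to 51.5) each overlap that of the next gene, as do those further down. Below Id3 the order also differed between ages: Tgfbr2 stood at 107, 22.3 and 48.4 CPM and Id1 at 91.0, 27.8 and 112 CPM at 3, 6 and 9 months.

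Marker genes of several cell types moved with the same contrast. The summed fibroblast list (10 genes, all detected in each thyroid group) had pooled levels of 1847, 1768 and 7771 CPM in GFP- cells, against 15155, 13539 and 17657 in GFP+ cells, at 3, 6 and 9 months, with single libraries between 1073 and 9232 CPM and between 0 and 19279 CPM. The pericyte and smooth muscle list (8 genes) stood at 361, 259 and 703 CPM in GFP- and at 2313, 1346 and 607 CPM in GFP+. The order of the pooled levels was reversed at 9 months, where single libraries overlapped (607 to 799 CPM in GFP- and 558 to 629 in GFP+). The endothelial list (10 genes) went the other way, with 8140, 2700 and 3450 CPM in GFP- against 990, 453 and 377 CPM in GFP+. Of the 10 genes of the macrophage list, Ptprc, Cd68, Adgre1, C1qa, C1qb and Tyrobp were at 0 in every thyroid group; the list held 47 reads in GFP+ and 24 in GFP- cells at 3 months (234 and 66.2 CPM), from Lyz2 with Mrc1 or Fcer1g, and at most 2 reads in each other thyroid group. The lymphocyte list held 1 read in all thyroid libraries together. The part of these cell types in the differences of Tgfbi, Tgfb2 and Bmp4 was not tested, nor was that of the parathyroid list, which stood at 16439, 60396 and 26189 CPM in GFP- and at 2800, 41525 and 10478 CPM in GFP+ cells. Other lists with lower pooled levels in GFP+ were the follicular list (6053, 3516 and 7715 CPM in GFP-, then 4113, 2638 and 454 in GFP+), the C cell list (7977, 26428 and 10923, then 1224, 14659 and 3946) and the red cell list (1687, 10646 and 4481, then 194, 1335 and 1201). Single libraries overlapped at 6 months for the follicular list (2064 to 7744 CPM in GFP-, 0 to 3761 in GFP+). They overlapped at 6 and 9 months for the C cell and parathyroid lists, and at no age for the red cell list. The basal and squamous epithelial list stood at 5.51, 39.0 and 130 CPM in GFP- and at 4.97, 56.0 and 2978 CPM in GFP+. Its GFP+ libraries at 9 months lay between 58.1 and 9507 CPM, and its part was not tested either.

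Age did not bring a call for any member. Within GFP+ cells 1.58% of genes changed with age (30 of 1900) and within GFP- cells 1.53% (29 of 1900), and no member was among them. Of the 5 tested, the closest to a call was Tgfbi in GFP- cells, with 2.76 CPM of summed reads at 3 months, 13.9 at 6 months and 44.7 at 9 months (unadjusted p = 0.0227, adjusted p = 0.27, edgeR). With no filter, Bmp4 in GFP- cells had a lower unadjusted p (0.015) than Tgfbi (0.0312), and neither was called (adjusted p = 0.641 for both, edgeR). Bmp4 had 0, 3 and 8 reads in GFP- cells at 3, 6 and 9 months. In GFP+ cells the mean of Tgfbi over libraries was 57.7 ± 83.6 CPM at 3 months (SD, n = 4), 141 ± 189 at 6 months (n = 4) and 125 ± 48.1 at 9 months (n = 3). Its single libraries overlapped between the ages, at 0 to 177, 0 to 419 and 69.8 to 154 CPM, and the zeros lie in shallow libraries. The difference between the ages in the GFP contrast itself was called for 0.158% of genes (3 of 1900) and for no member. For Tgfbi that test gave an unadjusted p of 0.0819 and an adjusted p of 1, so the smaller fold at 9 months is not shown to differ from those at 3 and 6 months.

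Many other pathway genes were also higher in the GFP+ thyroid fraction. Of 93 other pathway genes in 7 lists, 30 were tested, and over the mean of ages 20 were higher in GFP+ cells and 3 lower. Of all genes tested, 11.4% were higher and 8.79% lower, and these shares also stand beside the counts of each list below. The median log2 difference was 1.55 over the 30, against -0.08 over all genes tested. How many of the 30 reached the level of the filter only in GFP+ libraries was not counted. The lists were also chosen with earlier results of these data known. The counts and this median may therefore lean toward GFP+. By age, 9 of the 30 were higher at 3 months, 14 at 6 months and 0 at 9 months, with 0 lower at each, where 4.95%, 5.26% and 0.263% of all genes tested were higher. Several of these genes also serve as fibroblast or smooth muscle markers (Col1a1, Col1a2, Col3a1, Dcn, Acta2 and Tagln), so the 2 kinds of list are not independent. Of the 23 calls, 13 were kept under every alternative processing in which the gene was tested.

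**Figure D4:**
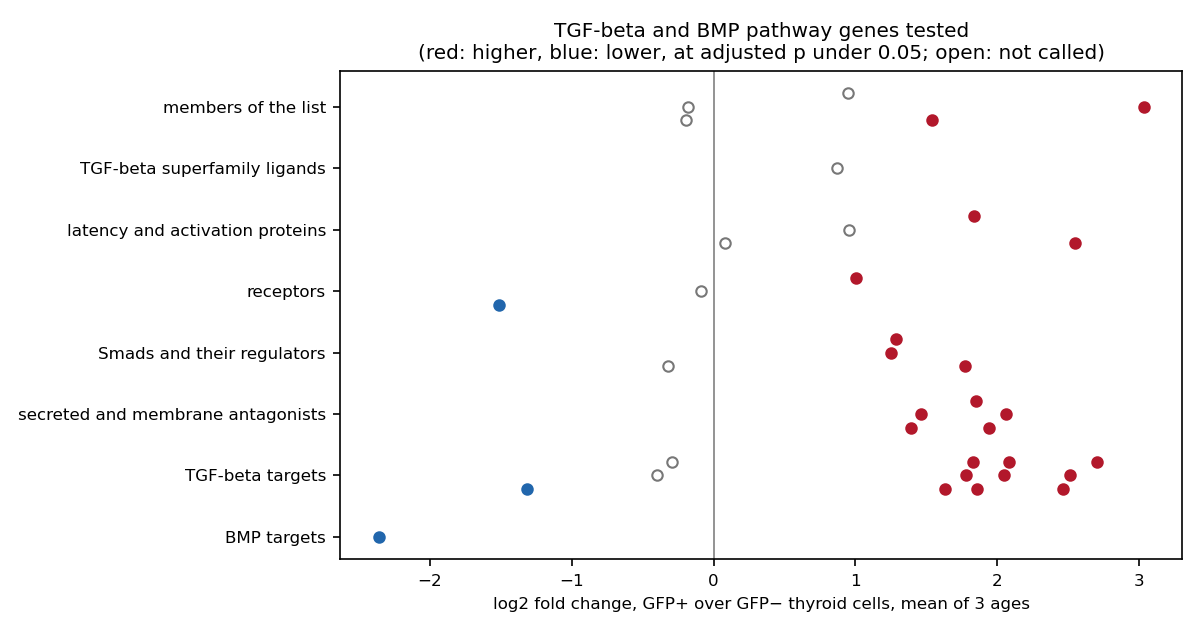
Log2 fold change of GFP+ over GFP- thyroid cells, mean of 3 ages (x axis), for the members tested and for the tested genes of 7 other pathway lists (y axis); each point is a gene, red if called higher, blue if called lower, open if not called. Called points of the antagonists and of the Smad regulators all lie to the right of 0, whereas the called BMP target, Id4, lies at -2.36.

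Among proteins that hold TGF-beta latent or release it, 2 of 4 tested genes of 14 listed were higher and 0 lower. Fbn1, which encodes the microfibril protein fibrillin-1, had 478 reads in GFP+ and 86 in GFP- cells and a log2 difference of 2.55 (adjusted p = 2.62e-08, edgeR). Thbs1, which encodes the latent TGF-beta activator thrombospondin-1, had 468 and 107 reads and a difference of 1.84 (adjusted p = 3.18e-05). Of 14 other ligand genes only Bmp2 could be tested, and it did not pass (0.87, adjusted p = 0.229, 95 against 43 reads).

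Of 11 other receptors, 3 were tested, 1 was higher and 1 lower. The co-receptor gene Tgfbr3 (betaglycan, which presents TGF-beta2 to its receptor) was higher (1.003, adjusted p = 0.0414, edgeR), a call kept in 13 of 29 alternatives. Eng (endoglin, a co-receptor known from endothelial cells) was lower (-1.51, adjusted p = 0.0037), with 47 reads in GFP+ and 141 in GFP- cells. Its direction was that of the endothelial list given above, and its call was kept in 27 of 29 alternatives.

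Among Smads and their regulators, 3 of 4 tested genes of 13 listed were higher and 0 lower. All 3 encode restraints of Smad signalling: Pmepa1 (1.78, adjusted p = 0.000166, 242 against 71 reads), Skil (1.29, adjusted p = 0.0118) and Ski (1.25, adjusted p = 0.0264, all edgeR). The calls of Skil and Ski were kept in 23 and 19 of 29 alternatives. All 5 tested antagonists, of 16 listed, were higher and 0 lower. They were led by Fstl1 (1.94, adjusted p = 2.4e-05), Nbl1, a BMP antagonist (2.06, adjusted p = 0.000112), the TGF-beta-binding proteoglycan gene Dcn (1.85, adjusted p = 0.00146) and Smoc2 (1.47, adjusted p = 0.00159). Dcn was by far the most abundant of them, at 9224 CPM of summed reads in GFP+ and 2157 CPM in GFP- cells.

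Of 16 further TGF-beta targets, 12 were tested, 9 were higher and 1 lower, with a median of 1.84. Among those with the lowest adjusted p were the collagen gene Col1a1 (2.46, adjusted p = 4.56e-08, edgeR), the smooth muscle actin gene Acta2 (2.51, adjusted p = 4.77e-07) and the collagen gene Col1a2 (2.04, adjusted p = 3.36e-05). Col1a1 had 441 reads in GFP+ and 72 in GFP- cells. The gene that fell was Tsc22d1 (-1.31), whose call was kept in 25 of 30 alternatives; it is named after its values were seen. Of 9 further BMP targets only Id4 was tested, and it was lower in GFP+ cells (-2.36, SE 0.543, adjusted p = 0.000177), with 30 against 114 reads.

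Across the 17 thyroid libraries of at least 10000 reads, the genes whose log2 CPM followed Tgfbi most closely were Hsd11b1 (Spearman rho 0.94, Pearson r 0.93), Il6 (0.92 and 0.88) and Cd44 (0.91 and 0.86). Those closest to Tgfb2 were Cxcl1 (0.96 and 0.94), Ccl11 (0.94 and 0.87) and Gpx3 (0.93 and 0.85). Hsd11b1 encodes an enzyme that regenerates active glucocorticoid, Cd44 a hyaluronan receptor, and Cxcl1 and Ccl11 chemokines. These values describe likeness over libraries that share the sort and its 2 fractions, and carry no test.

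In the salivary gland the list looked different: Id2 and Tgfb2 were the most abundant members, while Id3, Id1, Bmp4 and Tgfbr2 were at 5 reads or fewer in all 6 libraries together. Id2 held 91.4, 249 and 154 CPM in GFP- cells against 0, 424 and 75.7 in GFP+ cells, and Tgfb2 13.1, 55.4 and 117 against 0, 0 and 63.1 CPM. Id3 held 39.2, 0 and 5.30 against 0, 0 and 12.6 CPM. Fractions overlapped for all of these. Bmp4 and Tgfb3 had 0 reads in the 6 salivary libraries together, which allows up to 9.38 CPM (95% interval), Id1 had 1, and Tgfbi and Tgfbr2 had 2 each.

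No gene was called between the salivary fractions (0 of 974, 0%, edgeR), where 97 had an unadjusted p under 0.05 and DESeq2 also called 0. Id2 differed by -0.47 (adjusted p = 0.819) and Id3 by -0.52 (adjusted p = 0.932), and these 2 were the members that passed the filter at 9 months. No gene was called for a difference of the GFP contrast between the glands (0 of 974 in edgeR, 89 at an unadjusted p under 0.05, 0 in DESeq2, 1 without libraries under 10000 reads).

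**Figure D5:**
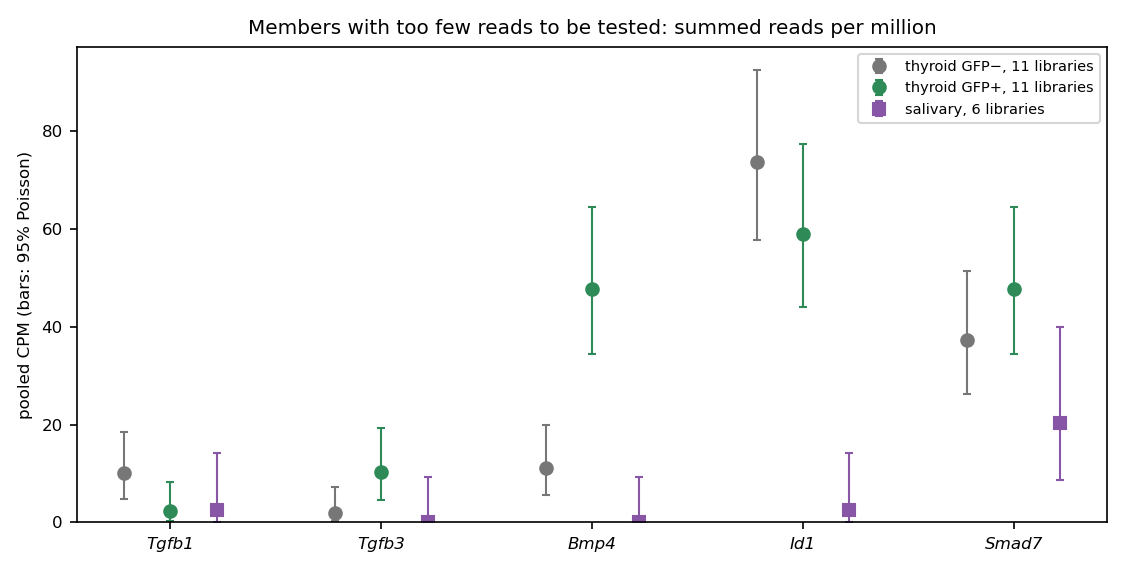
CPM of summed reads (y axis, bars are 95% Poisson intervals, counting error only) for the 5 members that did not pass the filter for the test in the thyroid, in 11 GFP- and 11 GFP+ thyroid libraries and 6 salivary libraries. In the thyroid, Bmp4 stands at 47.7 (GFP+) and 11.1 CPM (GFP-) with intervals that do not overlap, and Id1 at 2.54 CPM in the salivary gland.

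Id3 was called higher in thyroid than in salivary gland in GFP- cells. It was not called in GFP+ cells, and the difference between the fractions was not called either. At 9 months the GFP- values were 850, 339 and 307.2 CPM in thyroid and 39.2, 0 and 5.30 CPM in salivary gland, and the GFP+ values 261, 282 and 198 against 0, 0 and 12.6 CPM, without overlap in either fraction. The share of all genes without overlap between the glands was not counted. The salivary GFP+ libraries at 0 held 993 and 11795 reads, where 3 reads are worth 3021 and 254 CPM, so their zeros do not show a level below the thyroid values. The ratio of summed reads was 25.2 in GFP- (90 against 4 reads, 95% interval 9.52 to 94.6) and 23.5 in GFP+ (82 against 1 read, 4.10 to 939). In GFP- it was 75.3 without salivary replicate 1 and 12.6 without salivary replicate 3, and in GFP+ without salivary replicate 3 it was at least 1.09-fold (82 against 0 reads). The fitted log2 difference was 2.85 in GFP- cells (SE 0.956, adjusted p = 0.0286, edgeR) and 2.59 in GFP+ cells (SE 1.41, adjusted p = 0.185). In GFP- cells 14.2% of genes were called between the glands (9.86% higher and 4.31% lower in thyroid) and in GFP+ cells 14.6% (9.55% higher and 5.03% lower). Among the 2 members tested, 2 were called in GFP- and 1 in GFP+ cells. The scaling matters here, since TMM factors of the GFP- libraries were 0.281 to 0.485 in salivary gland and 1.25 to 1.80 in thyroid. With the size factors of DESeq2 the Id3 differences were 4.36 in GFP- (adjusted p = 1.07e-05) and 4.27 in GFP+ (adjusted p = 0.00148), while that scaling moved the median of all genes from 0.17 to 1.60 and from 1.16 to 2.81. The GFP- call was lost in 7 of 14 alternatives, over which the difference ranged from 1.93 to 4.65. Among these are the fits without salivary GFP- replicate 3 (1.93, adjusted p = 0.441) and replicate 2 (2.54, adjusted p = 0.132) and without thyroid GFP- replicate 2 (3.01, adjusted p = 0.0851) and replicate 3 (2.99, adjusted p = 0.101). Without salivary GFP- replicate 1 it was 4.62 and called.

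Id2 was called lower in thyroid than in salivary gland in both fractions, by a log2 difference of -2.91 in GFP+ (SE 0.91, adjusted p = 0.0188, edgeR) and -2.33 in GFP- (SE 0.753, adjusted p = 0.0222). These calls were lost with another scaling. As plain CPM, the GFP- values of 170, 83.0 and 115 CPM in thyroid overlapped the 91.4, 249 and 154 CPM in salivary gland, and the ratios of summed reads were 0.673 (95% interval 0.401 to 1.11) in GFP- and 0.469 (0.210 to 1.10) in GFP+. The latter was 0.749 without salivary GFP+ replicate 2 and 0.143 without salivary GFP+ replicate 3. With the size factors of DESeq2 the differences were -0.99 (adjusted p = 0.188) in GFP- and -1.46 (adjusted p = 0.102) in GFP+. The calls were kept in 4 of 14 alternatives in GFP- and 4 of 13 in GFP+; leaving out any 1 of salivary GFP- replicates 1, 2 and 3 or thyroid GFP- replicates 2 and 3 ended the former (-2.48 to -2.01), and leaving out salivary or thyroid GFP+ replicate 2 or 3 ended the latter (-2.98 to -2.17).

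The remaining members did not pass the filter between the glands, and in the fit with no filter on low counts none was called (adjusted p = 0.341 for Tgfbi and 0.438 for Tgfbr2 in GFP+ cells, 0.519 for Id1 and 0.676 for Bmp4 in GFP- cells, edgeR). Tgfbi had 42 reads in thyroid and 0 in salivary GFP+ cells at 9 months, at least 4.01-fold more per read in genes, and Tgfbr2 had 32 and 0, at least 3.05-fold more. Both limits rest on salivary GFP+ replicate 3: without it, 3 reads are worth 235 CPM in the salivary group, above the 131 and 99.6 CPM of the thyroid group, and no limit remains. Id1 had 30 reads in thyroid and 1 in salivary GFP- cells, a ratio of 33.6 (95% interval 5.59 to 1373), and Bmp4 had 8 and 0, at least 2.99-fold more. Without salivary GFP- replicate 3 these became at least 4.19-fold for Id1 (30 against 0 reads) and at least 1.12-fold for Bmp4, and without thyroid GFP- replicate 2 Bmp4 had 2 reads and no limit. Tgfb2 had 12 against 25 reads in GFP- cells, a ratio of 0.538 (0.246 to 1.11) that was 1.68 without salivary GFP- replicate 3. The fibroblast list stood at 229 and 152 CPM in salivary GFP- and GFP+ cells, against 7771 and 17657 CPM in thyroid cells of the same age; its part in these differences was not tested.

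Of the other pathway genes, 22 were tested between the glands, and 7 were higher in thyroid GFP+ cells and 9 in thyroid GFP- cells, with 0 lower in either, where 9.55% and 9.86% of all genes tested were higher. With the size factors of DESeq2, 669 and 469 of all 974 genes were higher in thyroid. The matrix gene Fn1 had 226 reads in thyroid and 0 in salivary GFP+ cells (adjusted p = 0.00348, edgeR) and 89 and 1 in GFP- cells (adjusted p = 0.00819). Bmp2, the only other ligand gene tested, had 24 reads in thyroid and 0 in salivary GFP- cells (adjusted p = 0.036). None of these 16 calls was kept under every alternative. The call of Fn1 was kept in 13 of 14 alternatives in GFP+ and 10 of 13 in GFP- cells, and that of Bmp2 in 4 of 12. With 0 and 1 salivary reads, Fn1 can have passed the filter on low counts only through thyroid libraries, where it was high. How many of the 22 passed through a single gland was not counted. The filter may therefore have tilted these counts toward genes higher in thyroid.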

How the data were processed

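The deposited files hold, for each of 28 libraries, whole-number read counts per gene, used as the authors deposited them. RNeasy kits with DNase I digestion and Lexogen 3′ libraries are named per the labels' protocols. The tool bcl2fastq and the build mm9 are named per the submitters' processing notes, while the aligner and the counting program are not given in the sources used here. Of the rows in a file, 47643 name genes. The remaining 5 are summaries and stayed out of library sizes and tests; reads outside genes came to 13.3 to 85.8% of a library and ambiguous reads to at most 0.426%. GENCODE gave symbols for 47224 identifiers and none for 419. Of 36 pairs of libraries within groups, 0 were identical.

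CPM is a count scaled to a library total of 1000000 reads in genes, with no TMM factor. The tests came from edgeR 4.0.16 in R 4.3.3: TMM, the default filterByExpr (minimum 10, total 15), a robust quasi-likelihood F test and a Benjamini-Hochberg threshold of 0.05. The thyroid fit held 22 libraries in 6 groups (1900 genes, biological coefficient of variation 0.466, TMM factors 0.582 to 10.5). The gland fit held the 12 libraries from 9 months in 4 groups (974 genes, 0.479, TMM factors 0.269 to 7.48). Standard errors follow from the F statistic. Ratios of summed reads have exact binomial and levels exact Poisson 95% intervals, for counting error only. For fold limits a count of 0 was taken as 3 reads over the group. The fits were also run on simulated data with a common spread and equal proportions in all groups, apart from genes changed on purpose. These libraries differ from that setting, and no result here relies on that run.

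The members, pathway lists and marker lists were chosen with earlier results of these data known. All members are named. Of each other list, up to 4 called genes by adjusted p are named (up to 2 with most reads where none was called), and for each member called over ages the 3 genes most like it. A gene that this rule names among the TGF-beta targets is not reported here. The settings varied were the tool (DESeq2 1.42.0), the scaling (DESeq2 size factors), the filter (none, or at least 20 counts in 50% of libraries), the libraries fitted (all 28, only the groups compared, each left out in turn, none under 10000 reads), replicate number as a block, and ribosomal RNA rows left out. Ratios of summed reads and fold limits without each library were added after seeing the data. Promoter sequences matched 7 of 10 members.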

Additional observations from a re-analysis of the deposited data

Results flagged for a closer look

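In groups of 4 libraries, the highest or lowest value was set apart from the others by Dixon's criterion in 12 of 36 groups of member levels. For continuous values chance sets apart about 1 in 20 such groups, but 9 of the 12 hold 3 zeros and 1 other value, which the criterion always sets apart, so the number is not comparable with chance. Of the 12, 4 rest on 1 read. Among GFP+ thyroid libraries at 3 months, replicate 4 stood above the others for Tgfbr2 (183 CPM, 32 reads), Smad7 (85.7 CPM, 15 reads) and Tgfb3 (5.72 CPM, 1 read). Among GFP- libraries at 6 months, replicate 3 stood above the others for Tgfbi (23.9 CPM, 5 reads) and Tgfbr2 (38.3 CPM, 8 reads), and replicate 4 for Smad7 (69.3 CPM, 8 reads) and Tgfb1 (8.66 CPM, 1 read). In the same group replicate 1 stood apart for Bmp4 (101 CPM, 3 reads) and the shallow replicate 2 for Tgfb2 (206 CPM, 1 read). At 3 months GFP- replicate 1 stood apart for Tgfbi (10.7 CPM, 1 read) and GFP- replicate 3 below the others for Id1 (0 CPM). In GFP+ cells at 6 months replicate 2 stood apart for Tgfb1 (26.2 CPM, 2 reads).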

How the results depend on the processing

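Depth limits these results: 5 of 10 members were tested in the thyroid and 2 at 9 months across the glands, and under the stricter filter 0. The cause of each change below was not tested, except where fewer genes or libraries entered the fit.

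The labels do not say whether equal replicate numbers pair the libraries of the 2 fractions. Correlations of deviations exceeded 0.1 in 3 of 11 thyroid pairs (-0.089 to 0.35), 2 of 3 salivary pairs (0.082 to 0.19) and 0 of 6 pairs across glands. With so few and shallow libraries these values do not decide whether there was pairing. With replicate number as a block, genes called in the thyroid were 359 (mean over ages), 142, 102 and 33 (3, 6 and 9 months), 19 for age in GFP+ and 2 for age in GFP-, and 72 between glands in GFP- cells. Members called with the block were 2 for the mean, 0 at 6 months and 0 between glands in either fraction. With the block, Tgfbr2 at 3 months was 0.16, and Tgfbi at 6 months was 2.88 (adjusted p = 0.0543, edgeR).

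For the thyroid mean, 383 genes became 63 under the stricter filter (330 to 425 with 1 library left out), and the 2 members became 1 with DESeq2 and 0 under the stricter filter (0 to 3). At 3 months 184 genes became 22 without a filter, 43 under the stricter one and 48 with only the groups compared, and the member count of 1 became 2 with the size factors of DESeq2 and 0 under those 3 settings (0 to 1). At 6 months 135 genes became 43 with DESeq2, 10 without a filter, 25 under the stricter one, 66 with only the groups compared and 234 without shallow libraries (78 to 167), and the member count of 1 became 0 in the first 4 of these (0 to 2). At 9 months 36 genes became 13, 3, 5 and 19 in those 4 settings (6 to 43). The difference between ages, 3 genes, became 0 with DESeq2, 8 with its size factors and 20 without shallow libraries (0 to 6). Age in GFP+ cells, 30 genes, became 2 with DESeq2, 56 without a filter, 7 under the stricter one and 11 with only the groups compared (13 to 48). Age in GFP- cells, 29 genes, became 4 with DESeq2, 60 with its size factors, 5 without a filter, 10 under the stricter one, 2 with all 28 libraries, 53 with only the groups compared, 117 without shallow libraries and 16 without ribosomal RNA rows (1 to 49).

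Between salivary fractions, 0 genes became 12 with the size factors of DESeq2 and 4 with all 28 libraries or without ribosomal RNA rows (0 to 18). Between glands in GFP+ cells 142 genes became 562 with DESeq2, 708 with its size factors, 31 without a filter and 21 under the stricter one (31 to 152), and the member count of 1 became 0 without a filter, under the stricter one, with all 28 libraries and with only the groups compared (0 to 1). In GFP- cells 138 genes became 363, 501, 50 and 21 in the first 4 settings and 208 without shallow libraries (32 to 203), and the member count of 2 became 1 with DESeq2 or its size factors and 0 without a filter, under the stricter one and with all 28 libraries (0 to 2). The gland difference of the GFP contrast, 0 genes, became 1 without shallow libraries (0 to 1).

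Directions that turned were all of differences not called. Over ages, Id2 became 0.15 with DESeq2 and 0.089 with its size factors, Id3 0.13 with the size factors and 0.17 without shallow libraries, and Tgfbr2 ranged from -1.01 to 2.28 with 1 library left out. At 3 months Tgfbr2 became 0.31 with DESeq2, 0.44 with its size factors and 0.34 without shallow libraries (-5.96 to 0.52), and Id3 0.19 and 0.26 in the first 2. Between salivary fractions Id3 became 0.21 with DESeq2 (-4.73 to 1.08). For the gland difference of the GFP contrast, Id2 became 0.0049 without a filter (-0.92 to 0.11), and Id3 0.53 without a filter and 0.18 with all 28 libraries (-1.80 to 4.01).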
